A study of Saccharomyces cerevisiae with 15 samples.

Results

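Hydrogen peroxide (H2O2) stress without melatonin was compared with unstressed growth in QA23, a commercial wine strain of Saccharomyces cerevisiae. The 6 arrays were chosen by their labels: 3 cultures exposed to 2 mM H2O2 for 1 h (condition H) and 3 cultures with no H2O2 and no melatonin, collected at the same point (Control), out of 15 arrays in the series. All cultures had been grown in YPD, a rich glucose medium, to exponential growth before the stress, and the study's methods describe the dose as sublethal and the 3 cultures of a condition as biological replicates. The other 9 arrays hold cultures with 5 μM melatonin (Mel), with 5 μM melatonin and H2O2 (MelH) and with 25 μM melatonin and H2O2 (25MelH). Mel and MelH are used below only to set the H2O2 effect in melatonin-supplemented cells beside it.

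H2O2 oxidizes protein thiols, and yeast removes it mainly with peroxiredoxins, glutathione-dependent peroxidases and catalases. The peroxiredoxins and glutathione-dependent peroxidases draw their electrons from NADPH through thioredoxin and glutathione. The factor Yap1 is held in the nucleus once H2O2 has oxidized it, and it switches on many of these genes together with Skn7. A second program, the general stress response of Msn2 and Msn4, serves many kinds of stress and includes trehalose and glycogen enzymes.

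Each array measured 6224 genes with 60-base probes, 1 colour of dye and 2 spots per probe. A gene's relative signal is its signal divided by the 75th percentile of its array, so every change below is relative to the rest of the transcripts and not an amount per cell. That percentile lay between 4195 and 5938 intensity units in Control and between 2790 and 2873 in H, and 91.2 to 96.8% and 88.4 to 93.0% of genes stood well above background. Replicates correlated at r of 0.994 to 0.995 within Control and 0.993 to 0.996 within H, and at 0.967 to 0.976 between the conditions, on log2 values across genes. Control 1, Control 2 and H 1 lay on 1 slide and Control 3, H 2 and H 3 on another.

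At an adjusted p under 0.05 (limma's moderated test with Benjamini-Hochberg adjustment over all genes), 4260 of 6224 genes were called, which is 68.4%. Of these, 1700 genes (27.3%) were higher in H and 2560 (41.1%) lower, and the median change over all genes was -0.09 on the log2 scale. The falls were larger than the rises: of the 759 genes (12.2%) called with at least a 2-fold change, 102 (1.64%) rose and 657 (10.6%) fell, while no gene rose 8-fold and 29 fell at least 8-fold. On 4612 genes (74.1%) the 3 H arrays did not overlap the 3 Control arrays. The split of higher against lower depends on the reference: dividing by the array median adds 0.26 to every log2 change and calls 2722 genes higher and 1687 lower, quantile normalization calls 2266 and 1817, normexp background correction calls 2582 and 2083, and 7 spike-in control probes take 1.42 from every log2 change and call 20 higher and 5938 lower. Gene groups are therefore read against the median of all genes, which a constant shift does not alter. Within slides 1 and 2 alone 39 of 41 lists kept their side of that median. Counts of called list members are read against the 27.3% of all genes called higher and the 41.1% called lower. Direction also went with signal level: of the 1556 genes with the lowest mean signal 9.77% were higher and 40.0% lower, and of the 1556 with the highest 55.5% were higher and 20.6% lower. The median change of the dimmest 1556 was -0.24 and turned to 0.39 under normexp, while that of the brightest 1556 stayed at 0.24. What lowered the signal on the H arrays was not tested. These arrays cannot tell less RNA per cell or fewer responding cells from other causes.

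Several cytosolic peroxide-scavenging genes were higher in H, and the catalases were not. Of 6 peroxiredoxin and sulfiredoxin genes, 4 rose and 1 fell, with a median log2 change of 0.89. SRX1, the sulfiredoxin that repairs overoxidized peroxiredoxins, had relative signals of 0.0221, 0.0352 and 0.0244 in Control and 0.180, 0.187 and 0.197 in H, with each set of 3 given in the order of arrays 1, 2 and 3. All 3 H arrays of SRX1 lay above the highest Control array, and the change was 2.82 ± 0.18 (log2 ± SE, adjusted p = 6.1e-05). AHP1, a thiol peroxidase that acts mainly on alkyl hydroperoxides, read 46.7, 47.3 and 43.2 in Control and 106, 117 and 102 in H, a change of 1.24 ± 0.070. TSA1, the main cytosolic peroxiredoxin, read 24.0, 24.3 and 21.2 in Control and 40.7, 42.7 and 41.8 in H, a change of 0.85 ± 0.065. Under quantile normalization AHP1 and TSA1 rose by less, 0.61 and 0.51. The paralog of TSA1, TSA2, rose by 0.93 ± 0.095, whereas the mitochondrial PRX1 changed by -0.03 ± 0.040 without a call and the nuclear DOT5 fell (-0.38 ± 0.038), a call that quantile normalization ended.

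Genes of the thioredoxin and glutaredoxin systems split within their families. TRX2, 1 of the cytosolic thioredoxins, read 8.18, 7.44 and 6.62 in Control and 14.5, 14.3 and 14.5 in H, and its arrays did not overlap (0.97 ± 0.082, adjusted p = 0.00018). Its paralog TRX1 read 4.62, 4.34 and 4.08 in Control and 4.07, 3.88 and 4.10 in H, with overlapping arrays and no call (-0.11 ± 0.058, adjusted p = 0.14). Cytosolic thioredoxin reductase TRR1 rose (0.67 ± 0.049) and so did MXR1, which reduces oxidized methionine (1.20 ± 0.092), while their mitochondrial partners TRR2 (-0.25 ± 0.11), TRX3 (-0.24 ± 0.094) and MXR2 (0.21 ± 0.081) were not called. Among 8 glutaredoxins 4 rose and 2 fell, and the dithiol pair went opposite ways, with GRX2 at 0.43 ± 0.090 and GRX1 at -0.33 ± 0.042.

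Superoxide and peroxide enzymes with metal centres followed the same upward course, again without catalase. SOD1, the copper-zinc superoxide dismutase, read 21.1, 21.2 and 17.3 in Control and 34.8, 34.5 and 34.1 in H (0.80 ± 0.089), its copper chaperone CCS1 rose by 0.65 ± 0.039, the mitochondrial manganese enzyme SOD2 by 0.83 ± 0.052 and cytochrome c peroxidase CCP1 by 0.55 ± 0.055. The cytosolic catalase CTT1 read 0.113, 0.100 and 0.103 in Control and 0.0879, 0.0828 and 0.0894 in H, and fell by 0.28 ± 0.061, a call that turned into a rise of 0.34 under quantile normalization. The peroxisomal catalase CTA1 was not called (-0.05 ± 0.060, adjusted p = 0.45), and its change was 0.54 under quantile normalization. Under that normalization SOD1, CCS1, SOD2 and CCP1 rose by 0.53, 0.59, 0.67 and 0.40, so the catalases did not stand apart there.

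In glutathione metabolism 7 of 18 genes rose and 5 fell, a median of 0.12. The peroxidase gene GPX2 read 0.416, 0.401 and 0.316 in Control and 1.19, 1.24 and 1.21 in H (1.69 ± 0.11), whereas its relative GPX1 fell by 0.47 ± 0.12, not called under quantile normalization and turned to 0.37 under normexp. GSH1, which catalyses the rate-limiting step of glutathione synthesis, read 0.605, 0.615 and 0.636 in Control and 1.05, 1.01 and 1.02 in H (0.73 ± 0.040). Glutathione reductase GLR1 (0.44 ± 0.069) and the vacuolar glutathione-conjugate pump YCF1 (0.44 ± 0.052) rose less. OPT1, a plasma membrane transporter of glutathione and oligopeptides, fell by 1.51 ± 0.063, and the transferase GTT2 fell by 0.67 ± 0.059, which did not pass the test under quantile normalization (-0.09).

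NADPH supply was led by ALD6, the cytosolic acetaldehyde dehydrogenase that produces NADPH. Its relative signal was 3.15, 3.33 and 4.10 in Control and 21.1, 21.0 and 19.2 in H, a 5.82-fold rise (2.54 ± 0.11, adjusted p = 2.1e-05). ZWF1, the first enzyme of the pentose phosphate pathway, read 0.485, 0.399 and 0.533 in Control and 0.845, 0.855 and 0.796 in H (0.83 ± 0.11), and the downstream enzymes GND1 (0.38 ± 0.061) and TKL1 (0.59 ± 0.059) rose as well. The lactonase SOL4, the transaldolase TAL1 and the mitochondrial NADH kinase POS5 fell, POS5 by 0.78 ± 0.081 (-0.17 and not called under quantile normalization). Over the 18 genes 8 rose and 5 fell, and the list's place above the median of all genes turned to just below it under quantile normalization.

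**Figure D1:**
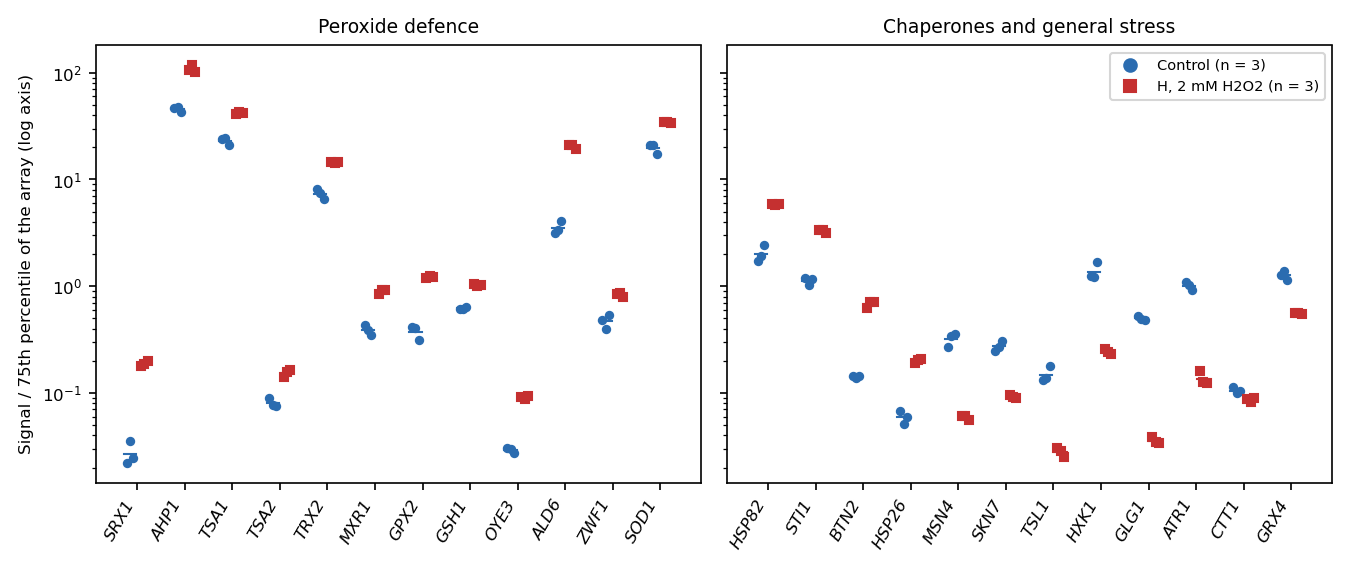
Relative signal (signal divided by the array's 75th percentile, log axis) of 24 genes on each of 3 Control arrays (blue circles) and 3 H arrays (red squares), with bars at the mean of the log2 values. In the left panel every H array lies above every Control array of the same gene, since only genes called higher are shown there. DOT5, GRX1, GPX1 and TAL1, which fell, and PRX1, TRX1 and CTA1, which were not called, are not drawn. In the right panel the 4 chaperone genes are higher in H and the other 8 genes are lower.

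Of 31 Yap1 targets on the list, 21 were higher in H (67.7%, against 27.3% of all genes) and 6 lower, with a median of 0.55. OYE3, an NADPH oxidoreductase of the old yellow enzyme family, read 0.0304, 0.0301 and 0.0274 in Control and 0.0909, 0.0868 and 0.0939 in H, a 3.09-fold rise (1.63 ± 0.059), while OYE2 rose by 0.36 ± 0.037. OSI1 (1.15 ± 0.10), GRE2, a methylglyoxal reductase (0.96 ± 0.048), and the drug pump SNQ2 (0.73 ± 0.066) were among the other rises. The exporter ATR1, a Yap1 target for aminotriazole and boron resistance, went strongly the other way and read 1.09, 1.02 and 0.920 in Control and 0.159, 0.127 and 0.123 in H (-2.89 ± 0.12, adjusted p = 1.9e-05). FLR1, another Yap1-dependent exporter, fell by 0.50 ± 0.056. YLR460C stood below background on every array, so its direction is not given.

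The transcripts of the stress regulators themselves mostly fell: 15 of 26 were lower and 8 higher. YAP1 changed by 0.13 ± 0.048 and was not called (adjusted p = 0.057). SKN7, its partner at oxidative stress promoters, read 0.249, 0.271 and 0.304 in Control and 0.0965, 0.0912 and 0.0887 in H, a 2.97-fold fall (-1.57 ± 0.084). MSN4 read 0.270, 0.342 and 0.359 in Control and 0.0612, 0.0613 and 0.0563 in H (-2.43 ± 0.12) and MSN2 fell by 0.67 ± 0.044. XBP1, a stress-induced repressor, fell by 2.82 ± 0.25, but only 1 of its 3 H arrays was well above background, and under normexp the change was -0.56. CIN5, a Yap-family factor, rose (0.78 ± 0.11), as did RPN4, the activator of proteasome genes (0.42 ± 0.061). Under quantile normalization the median of this list passed from below to above that of all genes.

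Multidrug exporters mostly fell, 15 of 21 lower and 3 higher, with a median of -0.50. Besides ATR1, the falls were led by AQR1, which exports amino acids and weak acids and read 0.605, 0.592 and 0.607 in Control and 0.110, 0.102 and 0.111 in H (-2.48 ± 0.047), and by the polyamine exporters TPO2 (-1.86 ± 0.097) and TPO3 (-1.67 ± 0.078). The 3 that rose were TPO1, a polyamine exporter (0.88 ± 0.053), SNQ2 and PDR5 (0.34 ± 0.098), the last of which lost its call with the slide as a block or without Control 2, H 1 or H 3.

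Chaperone genes rose in 28 of 36 cases and fell in 3, a median of 0.62. HSP82, the inducible Hsp90, read 1.73, 1.91 and 2.44 in Control and 5.84, 5.77 and 5.84 in H (1.53 ± 0.13), and the constitutive copy HSC82 rose by 1.06 ± 0.10. The Hsp90 partners STI1 (1.55 ± 0.067), AHA1, which stimulates its ATPase (1.12 ± 0.066), and CPR6 (1.08 ± 0.048) rose with them. BTN2, which sorts misfolded proteins into deposits, read 0.144, 0.137 and 0.145 in Control and 0.627, 0.711 and 0.705 in H, a 4.79-fold rise (2.26 ± 0.063), and its paralog CUR1 rose by 1.03 ± 0.045. The small heat shock protein HSP26 read 0.0684, 0.0516 and 0.0594 in Control and 0.193, 0.202 and 0.208 in H (1.76 ± 0.11). Cytosolic Hsp70 genes diverged: SSA1 rose by 1.06 ± 0.13 and SSA2 by 0.62 ± 0.063, SSA3 fell by 0.53 ± 0.074 (not called under quantile normalization), and SSA4 changed by 0.20 ± 0.067, which passed the test with all 6 arrays but failed without any 1 of 5 of them.

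Proteasome subunits and assembly factors shifted together but by little. Of 42 genes, 33 rose and 1, the assembly chaperone POC4, fell (-0.51 ± 0.053), and the median was 0.31. RPN1, a scaffold of the regulatory particle, moved most, from 2.29, 2.25 and 2.43 in Control to 4.59, 4.80 and 4.61 in H (1.01 ± 0.047). CDC48, the unfoldase that feeds substrates to the proteasome, rose by 0.60 ± 0.055. Autophagy genes went the other way, 21 of 32 lower (65.6%, against 41.1% of all genes) and 6 higher, a median of -0.41. That median was 0.03 under quantile normalization and -0.09 under normexp, against 0.07 for all genes in both. The protease gene ATG4 fell by 2.13 ± 0.068. ATG8, whose product is the substrate of that protease, was at 0.40 ± 0.11, a rise that missed the threshold without H 1.

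The general stress genes of Msn2 and Msn4 fell more often than they rose. Of 40 genes, 25 were lower (62.5%, against 41.1% of all genes) and 10 higher, with a median of -0.38, which was -0.01 under quantile normalization against 0.07 for all genes. The largest rises were HSP26, HSP12, a membrane-protecting protein (1.42 ± 0.15; well above background on 2 of 3 Control arrays and on all H arrays), and DDR2 (1.06 ± 0.25). The fallers included metabolic enzymes. HXK1, a hexokinase, read 1.23, 1.21 and 1.67 in Control and 0.257, 0.241 and 0.231 in H (-2.48 ± 0.14), and GPD1, the first enzyme of glycerol synthesis, read 5.18, 4.93 and 5.72 in Control and 1.97, 1.87 and 1.92 in H (-1.46 ± 0.065). TSL1, a regulatory subunit of trehalose synthase, read 0.132, 0.139 and 0.177 in Control and 0.0306, 0.0285 and 0.0249 in H (-2.41 ± 0.14), and TPS1 and TPS2, which carry out both steps of trehalose synthesis, fell by 0.45 ± 0.062 and 0.99 ± 0.061.

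Glycogen genes fell with them. In the list of 20 trehalose and glycogen genes 12 fell and 2 rose, with a median of -0.80. GLG1, the glycogenin that primes new glycogen, read 0.531, 0.492 and 0.479 in Control and 0.0386, 0.0351 and 0.0336 in H (-3.81 ± 0.070). Glycogen synthase genes GSY1 (-2.24 ± 0.089) and GSY2 (-1.62 ± 0.071), the branching enzyme GLC3 (-1.86 ± 0.12) and glycogen phosphorylase GPH1 (-1.77 ± 0.067) all fell, so that enzymes of synthesis and of breakdown went the same way. The trehalases NTH1 (0.07 ± 0.068) and NTH2 (0.13 ± 0.059) were not called.

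**Figure D2:**
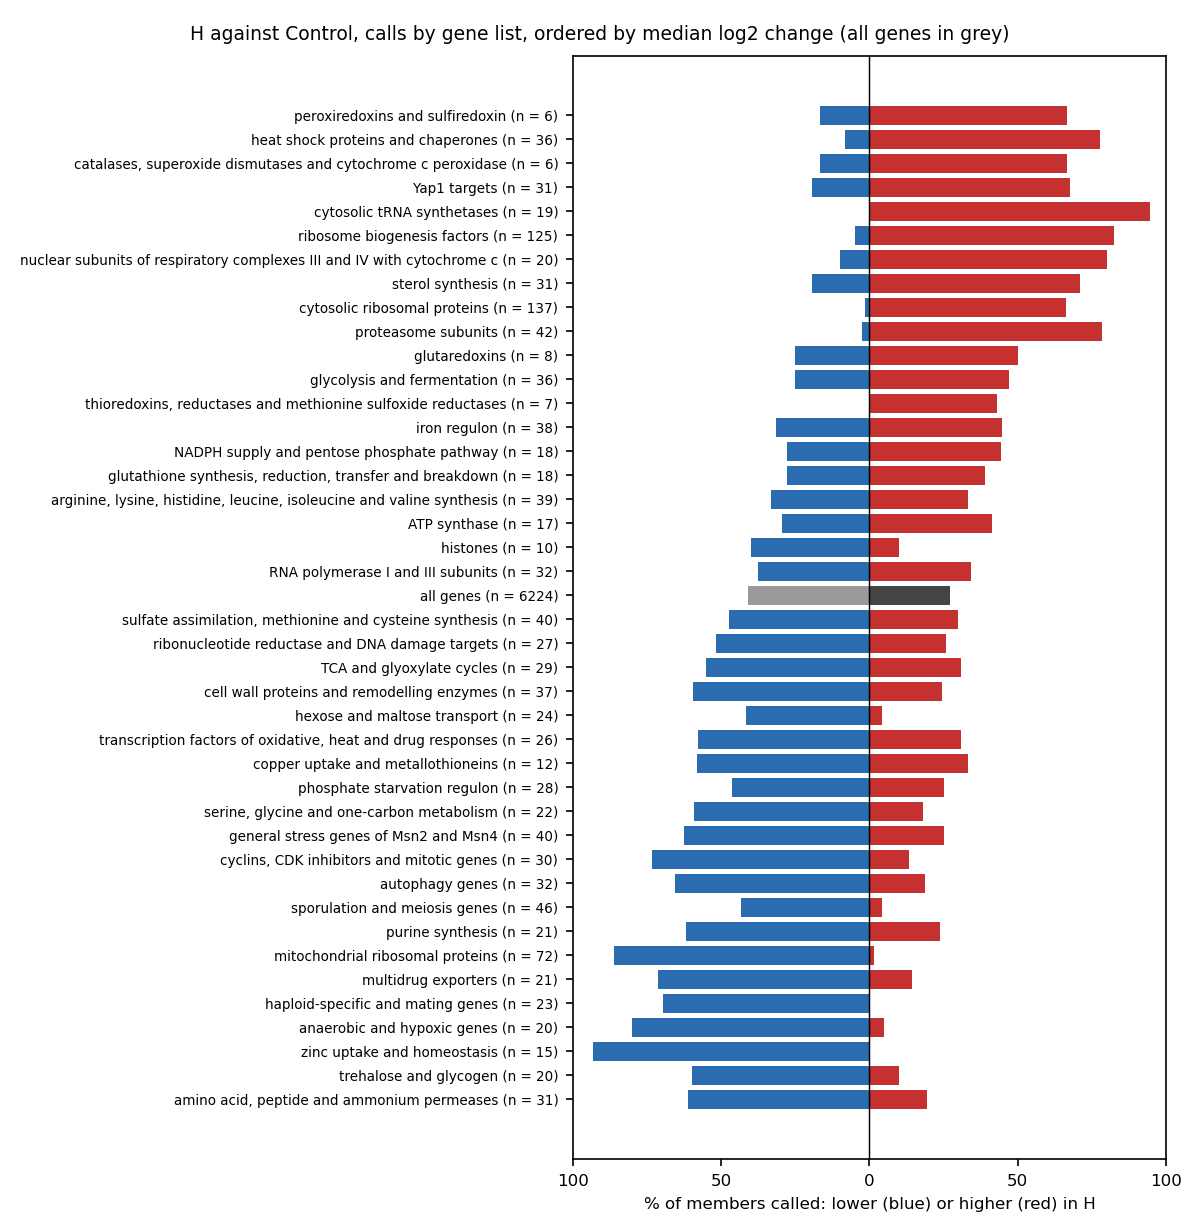
Share of each gene list's members called higher (to the right, red) or lower (to the left, blue) in H than in Control, in percent, lists ordered by median log2 change and all 6224 genes in grey. Peroxiredoxins, chaperones, Yap1 targets, tRNA synthetases and ribosome biogenesis stand at the top; permeases, trehalose and glycogen genes, zinc genes and hypoxic genes stand at the bottom.

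The iron regulon held several of the largest rises of the whole comparison. In yeast, Aft1 and Aft2 switch on reductases, siderophore transporters and cell wall mannoproteins that bring iron into the cell. Of 38 genes 17 rose and 12 fell, and 12 rose at least 2-fold (31.6%, against 1.64% of all genes). The siderophore transporter SIT1 read 0.197, 0.180 and 0.173 in Control and 1.17, 1.38 and 1.34 in H (2.82 ± 0.084), and ARN1, another siderophore transporter, read 0.140, 0.134 and 0.141 in Control and 0.600, 0.731 and 0.690 in H (2.28 ± 0.081). The mannoproteins FIT1, FIT2 and FIT3, which hold siderophores in the cell wall, rose by 1.22, 2.58 and 1.63. FRE4, a ferric reductase homolog, rose 7.22-fold, and FRE1, the main ferric and cupric reductase, read 0.799, 0.873 and 0.637 in Control and 3.32, 3.59 and 3.38 in H (2.17 ± 0.12). FRE5 had a bound of 3.20-fold higher in H, as no Control array and only 1 H array measured it well above background. The bound averages all 3 H arrays, and the log2 change under normexp, 1.04, was smaller than that bound.

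High-affinity iron uptake was not raised evenly. FET3, the multicopper ferroxidase, read 1.02, 1.09 and 1.27 in Control and 2.78, 2.80 and 2.71 in H (1.30 ± 0.086), but its permease partner FTR1 read 1.57, 1.62 and 1.80 in Control and 1.93, 1.88 and 1.75 in H and was not called (0.16 ± 0.069, adjusted p = 0.085). Genes for saving iron inside the cell rose too: TIS11, which destabilizes mRNAs of iron-using proteins, by 2.77 ± 0.18, and the heme oxygenase HMX1 by 2.59 ± 0.075. FET4, the low-affinity metal transporter, fell by 2.09 ± 0.17, and CCC1, which stores iron in the vacuole, read 0.957, 0.981 and 0.976 in Control and 0.417, 0.418 and 0.420 in H (-1.22 ± 0.035). FRE2 (-0.84 ± 0.15), FRE6 (-1.25 ± 0.093) and GRX4, a glutaredoxin that restrains Aft1 (-1.19 ± 0.074), fell (FRE2 was not called under quantile normalization), and the transcript of AFT1 was not called (0.08 ± 0.059). That of AFT2 passed the test (0.31 ± 0.079; 0.83 under quantile normalization), but not with the replicate number as a block (adjusted p = 0.053).

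Copper genes for uptake and for storage moved apart. The copper transporters CTR3 and CTR1 read 0.296, 0.467 and 0.353 in Control and 2.22, 2.44 and 2.35 in H (2.67 ± 0.17) and 1.17, 1.23 and 0.986 in Control and 3.31, 3.26 and 3.19 in H (1.53 ± 0.089). The metallothionein genes CUP1-1 and CUP1-2, near-identical copies that the probes may not separate, fell steeply: CUP1-1 read 18.6, 16.8 and 20.1 in Control and 1.82, 1.81 and 1.94 in H (-3.31 ± 0.076, adjusted p = 5.2e-06). CRS5, the other metallothionein, fell by 1.10 ± 0.062. Of the regulators, MAC1, which activates CTR1 and CTR3, fell by 1.05 ± 0.059, and CUP2, which activates CUP1, fell by 0.27 ± 0.045, a direction that turned under quantile normalization (0.06).

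Zinc genes fell almost without exception: 14 of 15 were lower (93.3%, against 41.1% of all genes) and none was higher, with ZRT3 not called. ZRT1, the high-affinity zinc transporter, read 0.885, 0.667 and 0.546 in Control and 0.224, 0.232 and 0.224 in H (-1.60 ± 0.17), and ZRT2, the low-affinity transporter, fell by 0.96 ± 0.034. IZH4, a membrane protein of zinc homeostasis, fell 15.3-fold, and its relatives IZH1 (-2.30 ± 0.067), IZH2 (-1.44 ± 0.058) and IZH3 (-0.67 ± 0.075) fell as well. ZAP1, the activator of these genes, fell by 2.49 ± 0.13, measured well above background on 1 of 3 H arrays, and the change was -0.53 under normexp. The list's median was -0.73 and stayed below that of all genes under each scaling.

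The phosphate regulon gave no single direction, with 7 of 28 genes higher (25.0%) and 13 lower (46.4%). These shares were near the 27.3% and 41.1% of all genes. The polyphosphate polymerase subunits VTC1 (0.28 ± 0.055), VTC2 (0.38 ± 0.097), VTC3 (0.68 ± 0.054) and VTC4 (0.33 ± 0.050) all rose, although VTC1 and VTC2 were not called under quantile normalization. PHM6 was at least 29.5-fold lower in H, where no array measured it well above background, but its log2 fall was 2.36 under normexp, which is smaller than that bound. PHO84, the high-affinity phosphate transporter, was not called (0.15 ± 0.12, adjusted p = 0.33).

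**Figure D3:**
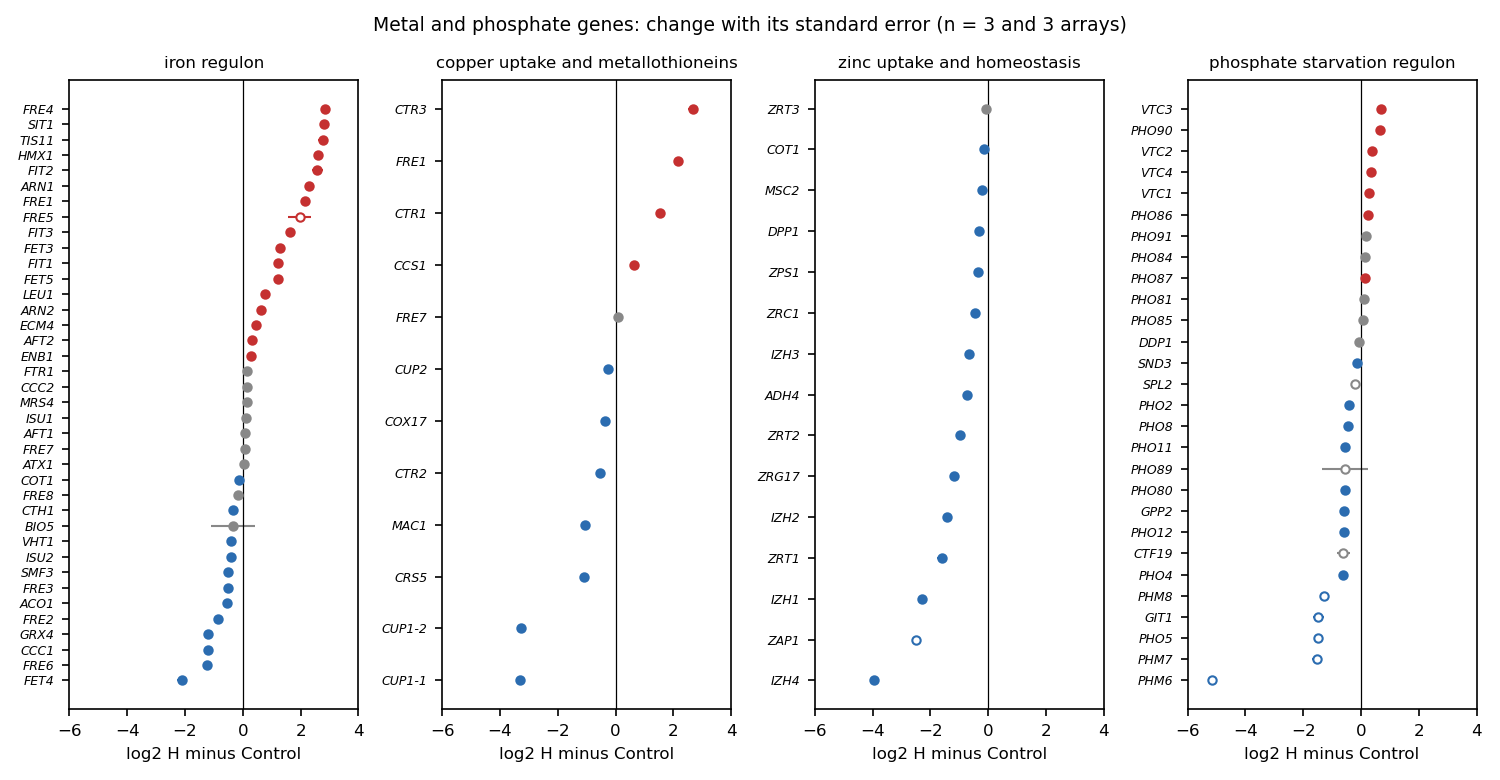
Log2 change (H minus Control) with its standard error for every member of the iron, copper, zinc and phosphate lists, from 3 arrays against 3. Red points were called higher, blue lower and grey were not called; open points were not well above background on all 6 arrays. The iron list reaches from 2.85 (FRE4) to -2.09 (FET4), whereas all called zinc genes lie below 0.

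In serine and glycine metabolism, the deaminase gene CHA1 rose, while genes of serine synthesis and of glycine cleavage fell. CHA1, which deaminates serine and threonine, read 0.531, 0.611 and 0.637 in Control and 4.27, 4.66 and 4.19 in H, the largest rise of a named gene (2.89 ± 0.084, 7.39-fold). SER3 and SER33, which begin serine synthesis, fell: SER3 read 7.22, 6.80 and 7.56 in Control and 0.623, 0.607 and 0.564 in H (-3.59 ± 0.061) and SER33 fell by 1.39 ± 0.076, with SER1 and SER2 of the same pathway falling by 1.05 ± 0.045 and 0.77 ± 0.040. All 3 subunits particular to glycine cleavage fell, GCV1 by 2.75 ± 0.098, GCV2 by 2.71 ± 0.072 and GCV3 by 1.48 ± 0.070, and so did the cytosolic one-carbon enzymes SHM2 (-1.54 ± 0.072) and MTD1 (-2.35 ± 0.044). Their mitochondrial counterparts SHM1 (0.46 ± 0.054) and MIS1 (0.74 ± 0.081) rose. In all, 13 of 22 genes were lower and 4 higher.

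Purine synthesis, which uses these one-carbon units, fell in 13 of 21 genes and rose in 5, a median of -0.43. ADE1 read 9.63, 9.34 and 9.50 in Control and 3.90, 3.78 and 3.60 in H (-1.34 ± 0.045), ADE2 read 18.3, 17.6 and 19.6 in Control and 7.82, 7.93 and 7.30 in H (-1.27 ± 0.060), and ADE17, ADE13 and ADE4 fell by 1.26 ± 0.077, 1.07 ± 0.081 and 0.99 ± 0.051. The guanine branch genes IMD2 (-1.34 ± 0.066) and IMD3 (-1.24 ± 0.048) fell too, although they are close copies whose probes may share signal, and GUA1, which acts after them, rose by 0.24 (not called under quantile normalization).

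Sulfur genes had mixed directions, 12 of 40 higher (30.0%, against 27.3% of all genes) and 19 lower (47.5%, against 41.1%). CYS3 and CYS4, which turn homocysteine into cysteine, rose: CYS3 read 8.85, 9.25 and 8.47 in Control and 16.8, 18.0 and 17.1 in H (0.97 ± 0.051) and CYS4 rose by 0.62 ± 0.065. SAH1, which releases homocysteine, and SAM2, which makes S-adenosylmethionine, rose by 0.78 and 0.89. MET6, which converts homocysteine back to methionine, read 1.01, 1.09 and 1.26 in Control and 0.399, 0.383 and 0.393 in H (-1.51 ± 0.085). The sulfate permease SUL2 (-1.59 ± 0.044), the activators MET4 (-1.23 ± 0.077) and MET28 (-1.73 ± 0.086) and the low-affinity methionine permease MUP3 fell, MUP3 from 1.73, 1.81 and 1.46 to 0.0481, 0.0456 and 0.0504, a 34.6-fold drop.

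Amino acid, peptide and ammonium permeases had a median of -0.81, with 19 of 31 lower and 6 higher. OPT2, an oligopeptide transporter, read 0.719, 0.767 and 0.863 in Control and 0.0208, 0.0170 and 0.0133 in H, a 46.5-fold fall and the largest among named genes measured on all 6 arrays. Permeases known for repression by rich nitrogen, GAP1 (-1.74 ± 0.098), DAL5 (-1.67 ± 0.074), MEP2 (-2.40 ± 0.043) and PTR2, the peptide carrier (-1.87 ± 0.054), fell together. GNP1, a glutamine permease, read 2.08, 1.97 and 1.85 in Control and 5.73, 5.50 and 5.12 in H (1.47 ± 0.066) and rose, as did the lysine permease LYP1 (0.72 ± 0.056). In the list of arginine, lysine, histidine and branched-chain synthesis 13 of 39 rose and 13 fell (33.3% each, against 27.3% and 41.1% of all genes). The lysine genes LYS20 (0.98 ± 0.053), LYS2 (0.73 ± 0.045) and LYS1 (0.69 ± 0.046) rose, and ILV5, of branched-chain synthesis, fell by 1.58 ± 0.068.

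Among hexose and maltose transport genes the share that fell was near that of all genes, with 10 of 24 lower (41.7%, against 41.1%) and 1 higher. HXT6 and HXT7, high-affinity transporters of near-identical sequence, read 7.33, 7.03 and 7.58 in Control and 0.676, 0.595 and 0.621 in H (-3.54 ± 0.062) and 12.3, 12.4 and 12.9 in Control and 1.32, 1.14 and 1.11 in H (-3.40 ± 0.075). HXT1, HXT3 and HXT4 fell by 0.99 ± 0.11, 1.13 ± 0.071 and 1.48 ± 0.12, the glucose sensor SNF3 by 1.04 ± 0.096 and the maltose permease MAL31 by 1.39 ± 0.053, and only HXT2 rose (0.40 ± 0.066). On the H arrays 6 of the genes were never well above background, and the list's median moved above that of all genes under normexp.

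Glycolysis and fermentation rose in 17 of 36 genes and fell in 9. The abundant enzymes PDC1 (0.81 ± 0.12), ADH1 (0.80 ± 0.097), FBA1 (0.76 ± 0.12), CDC19 (0.66 ± 0.085) and ENO2 (0.62 ± 0.079) were higher. Under quantile normalization none of these 5 was called: PDC1, ADH1 and FBA1 read 0.15, 0.10 and 0.11, and CDC19, ENO2 and also PGK1 turned to -0.0043, -0.05 and -0.14. The list's median then fell below that of all genes. Several minor isoforms fell: GLK1, glucokinase, by 1.60 ± 0.10, GPM2 by 1.78 ± 0.22, and ADH5 from 0.928, 0.959 and 1.08 to 0.0779, 0.0806 and 0.0742.

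Mitochondrial gene groups moved in different directions. Nuclear genes for complexes III and IV and cytochrome c rose in 16 of 20 cases and fell in 2, a median of 0.37. CYC1, the aerobic cytochrome c, read 6.66, 6.81 and 6.31 in Control and 12.3, 11.9 and 12.1 in H (0.88 ± 0.045), and COX13 and CYT1 rose by 0.88 and 0.81. ATP synthase genes gave no direction, with 7 of 17 higher (41.2%, against 27.3% of all genes), 5 lower (29.4%, against 41.1%) and a median of -0.02. Mitochondrial ribosomal protein genes fell in 62 of 72 cases (86.1%, against 41.1% of all genes) and rose in 1, MRP8, which the list took in by its name. Their median per array, against the Control mean, was 0.01, -0.02 and 0.02 in Control and -0.45, -0.48 and -0.50 in H. The tricarboxylic acid cycle list was lower in 16 of 29 and higher in 9, with SDH2, the iron-sulfur subunit of succinate dehydrogenase, falling by 1.50 ± 0.067 and the extramitochondrial enzymes CIT2 and MDH2 by 1.81 ± 0.072 and 1.84 ± 0.051, while pyruvate carboxylase PYC1 rose by 1.22.

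Cytosolic translation genes were mostly higher, in a comparison in which 55.5% of the 1556 brightest genes were higher too. Ribosome biogenesis factors rose in 103 of 125 cases and fell in 6, with median values per array of 0.04, 0.00 and -0.03 in Control and 0.44, 0.48 and 0.46 in H. The largest was NOP7, a factor of large subunit assembly (1.11 ± 0.093), with NOP14 (0.97 ± 0.040) and MAK5 (0.92 ± 0.063) next. Cytosolic tRNA synthetases rose in 18 of 19 cases, between 0.79 for KRS1 and 0.41 for HTS1, and TYS1 was not called (0.18 ± 0.077). Cytosolic ribosomal protein genes rose in 91 of 137 cases and fell in 2, a median of 0.34, but under quantile normalization their median change was 0.03 and lay below that of all genes. RPS28B was the clear exception and read 5.11, 6.38 and 6.27 in Control and 2.12, 2.14 and 1.85 in H (-1.53 ± 0.11). RNA polymerase I and III genes gave no direction, with 11 of 32 higher (34.4%, against 27.3% of all genes) and 12 lower (37.5%, against 41.1%). Their list changed its side of the median of all genes under quantile normalization, under normexp and within slide 1. The largest subunits of both polymerases lay apart (RPA190 0.47 ± 0.066, RPO31 -0.43 ± 0.060), and the initiation factor genes RRN7 and RRN11 fell by 1.38 ± 0.058 and 1.43 ± 0.18.

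Genes for growth at low oxygen fell while their repressor rose. ROX1, which encodes the heme-dependent repressor of hypoxic genes, read 0.0627, 0.0794 and 0.0862 in Control and 0.434, 0.442 and 0.408 in H (2.50 ± 0.12, 5.67-fold). Of the other 19 genes in the list 16 fell. HEM13, a heme synthesis enzyme repressed by Rox1, read 2.44, 2.35 and 3.44 in Control and 0.557, 0.565 and 0.555 in H (-2.27 ± 0.15), and the hypoxic isoforms COX5B (-1.10 ± 0.067), AAC3 (-1.10 ± 0.13) and ANB1 (-0.75 ± 0.098) fell, as did the cell wall gene TIR4 (-1.42 ± 0.12) and the sterol importer AUS1 (-1.13 ± 0.11). The list stayed below the median of all genes under each scaling. Sterol synthesis rose in 22 of 31 genes, with HMG1, the main HMG-CoA reductase, at 1.13 ± 0.090 and ERG11 at 0.47 ± 0.072, and fell in 6, among them ERG24 (-0.50 ± 0.088) and the sterol regulator UPC2 (-0.49 ± 0.061, turning to 0.10 under quantile normalization).

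Cell cycle genes fell in 22 of 30 cases and rose in 4. The G1 cyclin CLN1 read 1.52, 1.32 and 1.25 in Control and 0.239, 0.235 and 0.234 in H (-2.52 ± 0.078), and PCL1, a G1 cyclin of the Pho85 kinase, read 0.503, 0.490 and 0.490 in Control and 0.0502, 0.0490 and 0.0481 in H, the list's largest fall (-3.33 ± 0.038). The mitotic cyclins CLB1 (-2.30 ± 0.080) and CLB2 (-0.86 ± 0.057) and the polo kinase CDC5 (-1.09 ± 0.066) fell, and the CDK inhibitor SIC1 fell slightly (-0.37 ± 0.063). Genes for daughter cell separation fell alongside, SCW11 by 2.17 ± 0.068, DSE2 by 1.47 ± 0.088 and EGT2 by 1.45 ± 0.070, within a cell wall list in which 22 of 37 were lower and 9 higher. Histone genes changed by little, 4 of 10 lower (40.0%, near the 41.1% of all genes) and 1 higher, led by HHF2 (-0.71 ± 0.061).

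Of 27 ribonucleotide reductase and DNA damage genes 7 rose (25.9%, near the 27.3% of all genes) and 14 fell. The ribonucleotide reductase subunits RNR1 (-0.71 ± 0.061) and RNR3 (-0.47 ± 0.092, but 0.12 under quantile normalization) fell, RNR2 (0.17 ± 0.085) and RNR4 (0.11 ± 0.054) were not called, and the checkpoint target HUG1 rose by 0.41 ± 0.067. RAD18, of postreplication repair, fell by 1.23 ± 0.038. Of 23 mating genes 16 fell (69.6%, against 41.1% of all genes) and none rose, but only 10 of the 23 were well above background on all 6 arrays. Their median was -0.68 and turned to 0.25 under normexp. Of 46 sporulation genes 2 rose and 20 fell (43.5%, near the 41.1% of all genes), but 17 sporulation genes were not well above background on any H array, and both lists moved above the median of all genes under normexp.

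The 15 largest rises and 15 largest falls were taken among called named genes well above background on all 6 arrays. Most of the rises belonged to the groups above, but many of the falls did not. BSC1, of unknown function, rose 6.95-fold (2.80 ± 0.18) and MOR1 read 0.364, 0.568 and 0.335 in Control and 2.03, 1.68 and 2.00 in H (2.21 ± 0.21). The falls outside the lists were TDA6, which fell 26.4-fold, RGS2, a regulator of glucose-induced G protein signalling (0.541, 0.580 and 0.612 in Control and 0.0246, 0.0261 and 0.0256 in H), the GATA factor homolog GAT2 (0.488, 0.495 and 0.482 in Control and 0.0351, 0.0327 and 0.0335 in H), the membrane protein WSC4 (-3.68 ± 0.066), the kinase TDA1 (-3.51 ± 0.081), OCA5 (-3.44 ± 0.10), RRT5 (-3.41 ± 0.15) and BNA2, which begins the pathway from tryptophan to NAD (-3.43 ± 0.19). For all of them, 3 H arrays lying clear of the 3 Control arrays was a condition of being chosen.

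Many gene pairs with related products did not move together. Of 23 pairs, TIS11 and CTH1 lay furthest apart, with CTH1 falling by 0.34 ± 0.036 beside the rise of TIS11. The monothiol glutaredoxins GRX3 and GRX4 had opposite changes: GRX3 read 2.05, 2.62 and 2.57 in Control and 4.32, 4.48 and 4.17 in H (0.85 ± 0.10) and GRX4 read 1.29, 1.38 and 1.15 in Control and 0.565, 0.556 and 0.548 in H (-1.19 ± 0.074). HXK1 fell while HXK2, the main hexokinase on glucose, was not called (0.08 ± 0.038). The Hsp110 genes SSE1 (0.75 ± 0.075) and SSE2 (-0.50 ± 0.041), the cytochrome c genes CYC1 (0.88 ± 0.045) and CYC7 (-0.56 ± 0.092) and the transaldolases NQM1 (0.57 ± 0.12) and TAL1 (-0.33 ± 0.076) each had 1 member higher and 1 lower. Under quantile normalization SSE2 turned to 0.06, CYC7 to 0.06 and the fall of CTH1 lost its call.

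**Figure D4:**
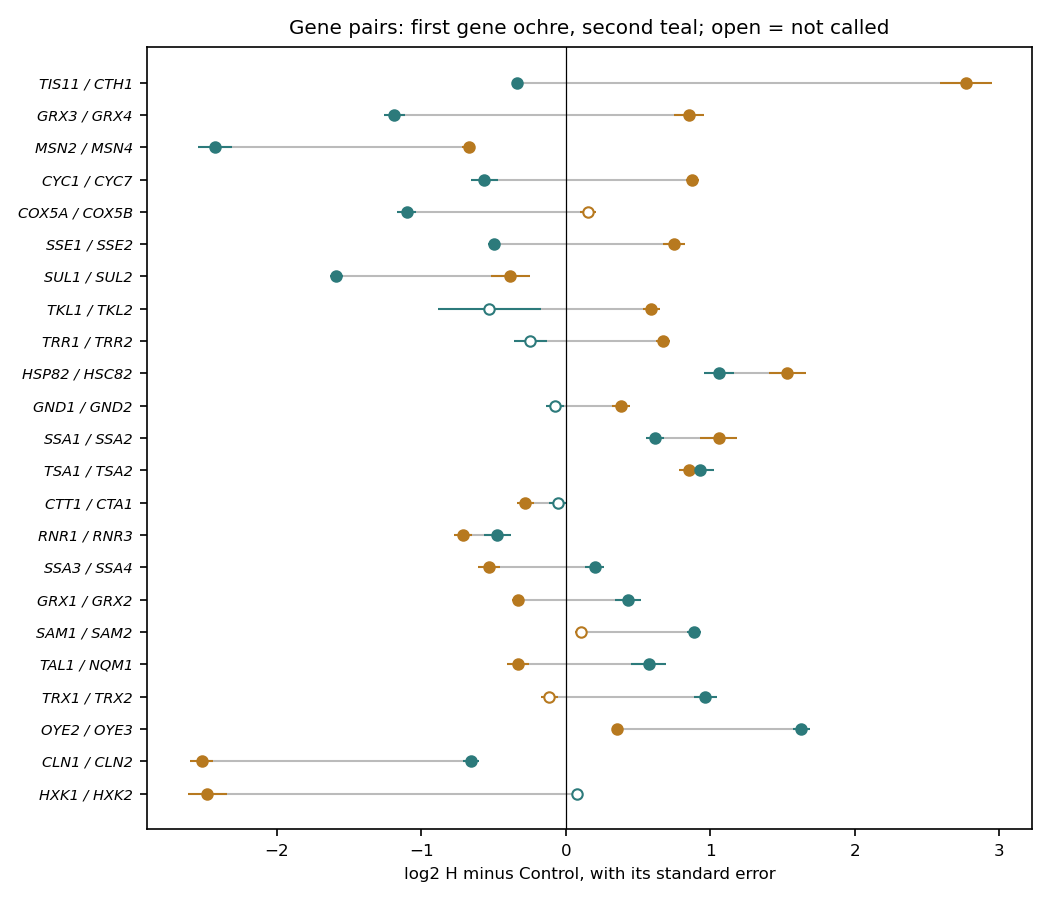
Log2 change (H minus Control) with its standard error for both genes of 23 pairs, from 3 arrays against 3, the first-named gene in ochre and the second in teal. Open points were not called; TIS11 and CTH1, GRX3 and GRX4, and HXK1 and HXK2 lie among the furthest apart, and TSA1 and TSA2 lie almost together.

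The H2O2 effect was then set beside that in melatonin-supplemented cells (MelH against Mel, 3 arrays each), a comparison that shares no array with the first. There 3275 genes (52.6%) were called, 1315 (21.1%) higher and 1960 (31.5%) lower. Of the genes higher in H than in Control 1093 were also called higher with melatonin, which is 64.3% of the first list and 83.1% of the second, and of those lower 1850 were shared, 72.3% and 94.4%. Only 2 genes called higher and 1 called lower without melatonin were called in the opposite direction with it. Beside that 64.3%, all 17 iron genes that rose did so in both comparisons, as did 20 of the 21 Yap1 targets, 19 of the 28 chaperone genes and 48 of the 91 ribosomal protein genes.

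Tested directly, the H2O2 effect without melatonin differed from that with it in 21 genes (0.337%) at an adjusted p under 0.05, and in 613 at an unadjusted p under 0.05. That count is unstable: without 1 array at a time it ranged from 0 to 126, and it was 0 without H 1, without H 3 or without MelH 1 and 126 without Mel 2. The copper genes CTR1 (1.53 ± 0.089 without and 2.48 ± 0.10 with melatonin) and CUP1-1 (-3.31 ± 0.076 and -4.19 ± 0.12), the peroxidase GPX2 (1.69 ± 0.11 and 2.90 ± 0.11) and the hypoxic genes HEM13 (-2.27 ± 0.15 and -3.51 ± 0.12), ANB1 (-0.75 ± 0.098 and -1.79 ± 0.096), TIR1 (-0.51 ± 0.062 and -1.46 ± 0.14) and TIR4 (-1.42 ± 0.12 and -2.84 ± 0.19) were among them, each with the larger effect in melatonin-supplemented cells. YOR338W (-1.05 ± 0.086 and -0.15 ± 0.099) and YLL053C (-1.26 ± 0.069 and -0.69 ± 0.086) had the smaller effect with melatonin. DIP5 changed direction (0.31 ± 0.061 and -0.70 ± 0.098). The paper reports that melatonin alone raised the hypoxic genes and the metallothionein named here, and lowered the copper transporter and the peroxidase. Mel is the baseline of the effect with melatonin, and the part of that baseline in these differences was not tested.

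**Figure D5:**
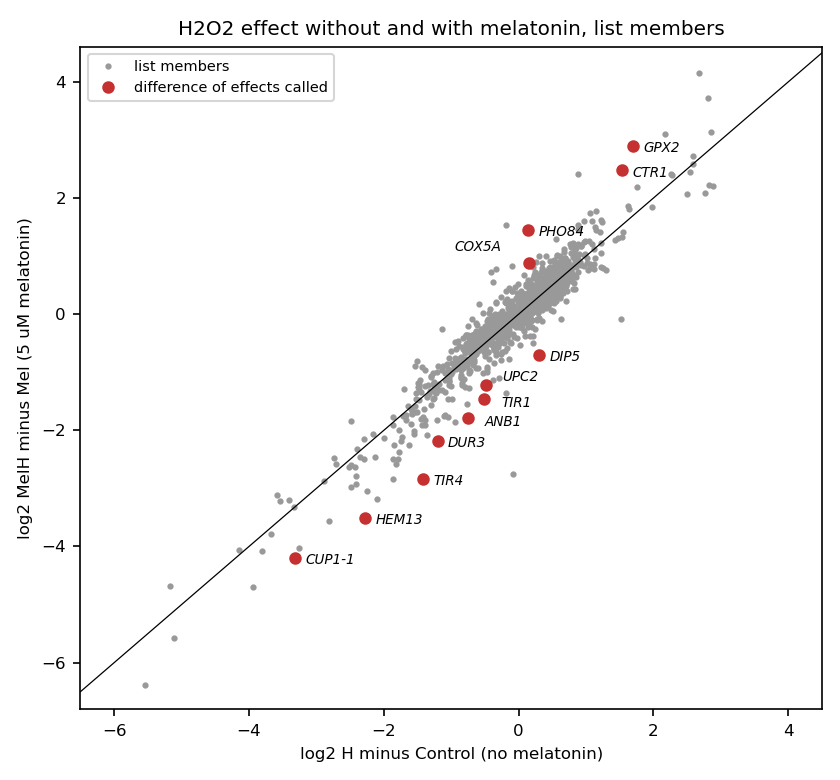
Log2 change with H2O2 in cells without melatonin (H minus Control, horizontal) and with 5 μM melatonin (MelH minus Mel, vertical) for the members of the gene lists, from 3 arrays in each condition, with the line of equality. Red points are list members whose 2 effects differed at an adjusted p under 0.05; HEM13, TIR4 and CUP1-1 lie below the line, and GPX2, CTR1 and PHO84 above it.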

How the data were processed

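QA23 total RNA was labelled with Cy3 and hybridized to yeast arrays, 1 sample per array. The authors scanned the arrays and extracted the spot intensity (gProcessedSignal, linear scale) with Feature Extraction version 12.0.1.1, and for their own tests scaled to the 75th percentile in GeneSpring. They also deposited a table of log2 values, in which 9 of 15 columns hold the values of a differently named sample's array, so it served only as an alternative. Here control spots were left out, log2 intensity minus the array's 75th percentile was taken as the mean of a probe's 2 spots, and limma 3.58.1 (R 4.3.3; lmFit, eBayes, two-sided, Benjamini-Hochberg over 6224 genes, threshold 0.05) compared 3 arrays with 3. The number of arrays limits the precision. A gene off background on every array of a condition is given as a bound, the brighter mean against the higher of the dimmest measured signal and the dim probe's own.

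The genes, gene lists, pairs and named genes were chosen with earlier results of these data known, so lists carry no test. Named are the 15 largest rises and falls, up to 4 called members of each list at either end, marker members, pairs and members of lists of 8 or fewer; other list members were added after their values were seen to complete a pathway. AAD6, AAD16, FTH1 and HSP150 were on the lists but matched no probe name. Alternatives changed the scaling (array median, quantile, 7 spike-in probes), background correction (normexp, offset 50, on median rather than mean signals), dim genes, slide, replicate number, arrays in the fit, probes of a gene and source of the values. The limma steps were tested on simulated data. Promoter and protein sequences were not used here.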

Additional observations from a re-analysis of the deposited data

Results flagged for a closer look

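In 21 genes the test of the difference itself found that the log2 effect of H2O2 without melatonin (H minus Control) was not the effect with 5 μM melatonin (MelH minus Mel), at an adjusted p under 0.05 in limma over 12 arrays. Each value below is the effect without minus the effect with melatonin, ± SE. The membrane and metal genes with a lower value were PHO84, the phosphate transporter (-1.30 ± 0.19), and CTR1, the copper transporter (-0.94 ± 0.13). Lower values were also found for the peroxidase GPX2 (-1.20 ± 0.15), the respiratory genes COX5A, a subunit of cytochrome c oxidase (-0.72 ± 0.098), and NDE1, an external NADH dehydrogenase (-0.63 ± 0.089), and for PET18 (-0.74 ± 0.11), YOR338W (-0.90 ± 0.12), YFL051C (-0.67 ± 0.10) and YLL053C (-0.57 ± 0.093).

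Higher values were found for genes of low oxygen: HEM13 (1.23 ± 0.19), TIR4 (1.42 ± 0.25), TIR1 (0.95 ± 0.15) and ANB1 (1.04 ± 0.13), and for the sterol regulator UPC2 (0.73 ± 0.10). The permeases DIP5, for acidic amino acids (1.01 ± 0.10), and DUR3, for urea (0.98 ± 0.14), the alcohol acetyltransferase ATF1 (0.66 ± 0.082), the metallothionein CUP1-1 (0.88 ± 0.14), and YHR022C (1.21 ± 0.21), YJR149W (0.96 ± 0.15) and YLR257W (0.75 ± 0.12) had higher values too. The smallest adjusted p among the 21 was 0.0091. In the pair of conditions without melatonin and in that with it, the slides held 1 or 2 arrays of each condition, and the part of the slide in these differences was tested only through the block given below.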

How the results depend on the processing

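Of the counts, the number of genes called between H and Control was 4260 and stayed within 1.5 times of that except within slide 1 alone (1783 genes) and with the deposited value table read by its column names (22 genes, against 4264 once its columns were matched to the arrays by value). Without 1 array at a time it ranged from 3820 to 4237. The count with a 2-fold change, 759, became 5146 with spike-in scaling and 422 with normexp, and 722 to 837 without 1 array. MelH against Mel gave 3275 genes, 5289 with spike-in scaling and 2324 to 3172 without 1 array. The 21 differences between the effects became 34 with quantile normalization, 6 with a block for the slide, 8 after spike-in scaling and 2 with the replicate block, and 0 to 126 without 1 array (1 without Control 1, 2 without Control 2, 3 without H 2, 1 without MelH 3). Fewer arrays were in the within-slide fit; for the other settings the cause was not tested.

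Samples of the same number did not deviate together (r of -0.15, -0.41 and -0.02 between H and Control). With 3 arrays per condition, these values cannot settle whether the numbers pair the cultures. The replicate block called 3916 genes, and no H or Control sample correlated best with its own number. For MelH and Mel the r were 0.08, -0.04 and 0.25, and replicate 3 correlated best with its own number. Among the genes printed, quantile normalization turned the direction of CDC19 (-0.0043), CTT1 (0.34), CUP2 (0.063), CYC7 (0.061), ENO2 (-0.052), PGK1 (-0.14), RNR3 (0.12), SSE2 (0.062) and UPC2 (0.10), and, among genes not called, CTA1 (0.54), HXK2 (-0.24), PRX1 (0.090), RNR2 (-0.050), RNR4 (-0.10), TRR2 (0.018) and TYS1 (-0.011). Normexp turned GPX1 (0.37), CTA1 (0.046) and PRX1 (0.031) and shrank other changes by over 1.5 times, among them XBP1 (-0.56), ZAP1 (-0.53), PHM6 (-2.36), MEP2 (-1.28), GAP1 (-0.91), MET28 (-0.83), SUL2 (-0.97), MAC1 (-0.68), TIR4 (-0.83), ATG4 (-1.30), GPM2 (-1.13), WSC4 (-2.24), OCA5 (-2.19), RRT5 (-2.08), TDA1 (-2.25), BNA2 (-2.24) and FRE5 (1.04). Median and spike-in scaling move every gene by 0.26 and -1.42, so that 7 and 17 of the 41 list medians change sign in absolute terms. Relative to all genes, 28 lists kept their side under both quantile normalization and normexp and 13 changed it under at least 1 of them.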
